A study of Mus musculus with 9 samples.

Results

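The genes described here encode 10 enzymes that make quinones, carbonyls, aldehydes and epoxides less reactive: *Nqo1*, *Nqo2*, *Akr1b8*, *Akr1b1*, *Akr1a1*, *Cbr1*, *Cbr3*, *Ephx1*, *Aox1* and *Aldh3a2*. They were listed by gene symbol for these reactions, with earlier results of these data already known. All 10 were found by symbol among the 15088 genes whose reads per library were used, and all 10 were among the 11599 genes tested.

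Quinones and reactive aldehydes arise in cells from redox cycling of drugs and metabolites and from the oxidation of membrane lipids, and both attack proteins and nucleic acids. Reductases of the NQO, aldo-keto reductase and carbonyl reductase families turn them into hydroquinones and alcohols, aldehyde oxidase and aldehyde dehydrogenases turn aldehydes into acids, and epoxide hydrolases turn epoxides into diols. Nrf1 and Nrf2 are related transcription factors that bind antioxidant response elements together with small Maf proteins, and *Nqo1* is a widely used readout of Nrf2 activity. In the heart these enzymes are known for their handling of anthracycline drugs and of aldehydes formed during ischemia.

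The cells were neonatal rat ventricular myocytes (NRVMs), which are ventricular cardiomyocytes taken from Sprague-Dawley rats 1 to 2 days old and kept in culture. They were cultured for 48 h, infected at a multiplicity of infection of 50, and collected 48 h later. The adenoviruses carried lacZ (a bacterial enzyme, the control), mouse Nrf1 or mouse Nrf2 in a CMV promoter vector that also held a red fluorescent protein. Each group had 3 libraries, and no group received a further treatment. The organism label of the samples reads mouse, although the cells are from rat. Nothing in the labels says that the libraries of a group came from separate cultures, so p-values measure only the spread between these libraries, which may be technical.

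The deposited tables list group means, and these resolved into whole reads for each library, named a, b and c, letters that carry no replicate number. Reads in genes came to 9205817, 8098215 and 7759856 in the LacZ libraries, 10162466, 9914175 and 8440144 in the Nrf1 libraries and 11741607, 11148221 and 10008535 in the Nrf2 libraries. Levels are given as CPM, which are reads of a gene brought to a common library size with median-of-ratios size factors, and fold changes are on the log2(CPM + 0.5) scale with their standard error (SE). A gene was called higher or lower when limma gave an adjusted p under 0.05 and the fold was over 1.5. Levels of the enzyme genes were compared between groups and not between genes, because gene lengths were not used here, and a marker called most abundant is so in CPM only.

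The label of the Nrf2 group was checked on *Nfe2l2*, the gene that encodes Nrf2. It stood at 365, 357 and 367 CPM in LacZ, 296, 304 and 301 CPM in Nrf1 and 8274, 8134 and 7095 CPM in Nrf2 libraries. Every Nrf2 library lay far above all the other libraries, and reads of the mouse transgene cannot be told apart there from those of the cells' own gene. The log2 fold change over LacZ was 4.43 ± 0.043 (adjusted p = 2.50e-22). The gene that encodes Nrf1 was not analysed here, so that group rests on its label.

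Cardiomyocyte markers were present in every library. Of 10 such markers 8 were analysed here, with none at 0, and their CPM summed to 14766, 12796.5 and 13782 in LacZ, 13977, 14024 and 14116 in Nrf1 and 15566, 15814 and 15404 in Nrf2 libraries. *Actc1*, which encodes cardiac actin, was the most abundant of them. The Nrf2 sums lay above every LacZ and Nrf1 library, and the LacZ and Nrf1 sums overlapped. The sums hold markers that moved in opposite directions, because with Nrf1 *Ryr2* (0.83 ± 0.035) and *Actc1* (0.64 ± 0.056) were called higher and *Myh7* (-1.06 ± 0.039), *Myl2* (-0.99 ± 0.040) and *Tnni3* (-0.96 ± 0.036) lower. The call of *Actc1* was lost without library b of LacZ (0.53) or with total-read scaling (0.57). With Nrf2 over LacZ limma called 0 of the 8 in either direction, because all were under the fold required, and by p alone, adjusted or unadjusted, 6 were higher and 2 lower. Markers of other cells were present too. The 10 fibroblast markers summed to 10397, 10654.5 and 10469 CPM in LacZ, 2788, 2909.6 and 2675 CPM in Nrf1 and 5892, 5435 and 5659.7 CPM in Nrf2 libraries. The groups did not overlap in this sum, with Nrf1 lowest and LacZ highest, and *Col1a1*, a collagen gene, made up most of its CPM. For Nrf2 over Nrf1, 6 of the 10 fibroblast markers were called higher and 1 lower (median 0.73), the last lost at a pseudocount of 2 CPM, and 4 of the 8 cardiomyocyte markers were called higher (median 0.51). In bulk RNA, fewer cells of a type and less RNA per cell cannot be told apart.

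**Figure D1:**
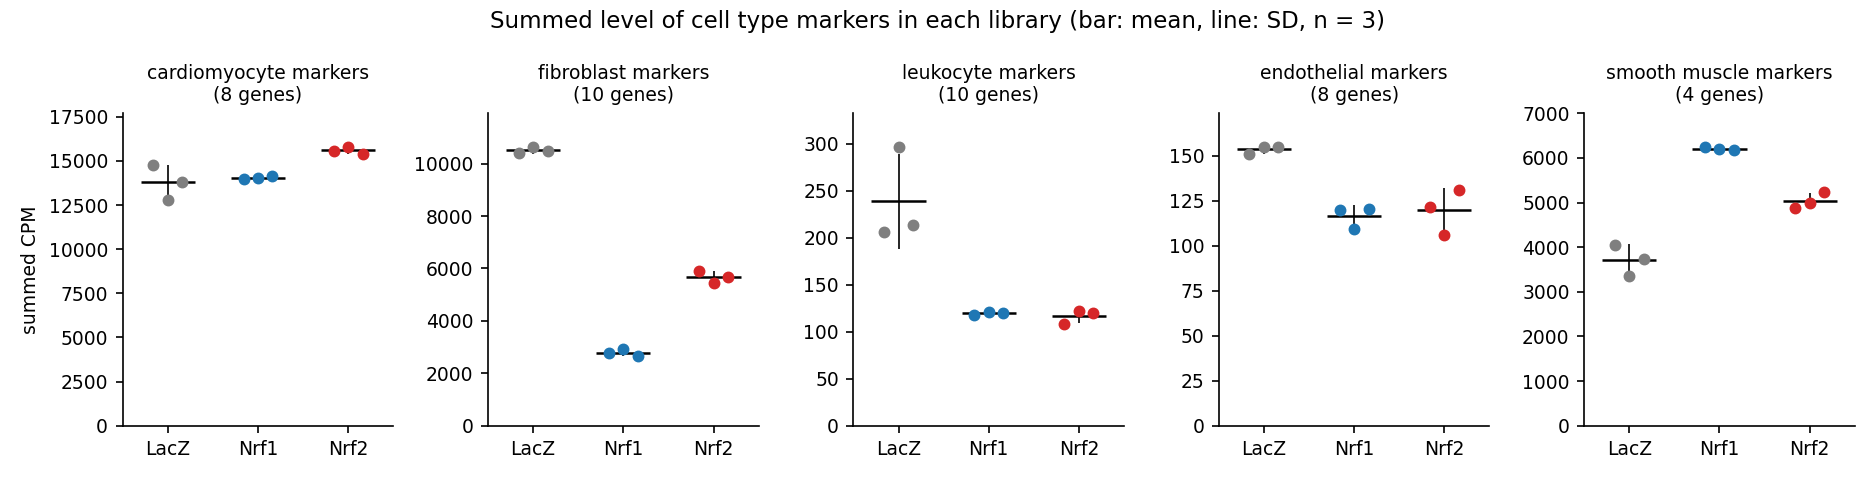
Summed level of the markers of 5 cell types in each library, in CPM, with points for libraries, bars for group means and lines for SD (n = 3). The fibroblast sums lie between 2675 and 2909.6 in Nrf1 libraries, below all Nrf2 and LacZ libraries.

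Of the 9 enzyme genes that were over 1 CPM in every group, 4 were higher with Nrf2 than with LacZ, while with Nrf1 1 was higher and 2 were lower. The genes that rose with Nrf2 were *Nqo1*, *Akr1b8*, *Akr1b1* and *Aox1*. The other gene, *Cbr1*, passed the filter on low values (over 1 CPM in 3 libraries) with 0 LacZ, 2 Nrf1 and 3 Nrf2 libraries, so it had to be higher there, and with it the count is 5 of 10. limma called 0 lower with Nrf2, while 1 gene, *Ephx1*, was lower at an adjusted and unadjusted p under 0.05 but under the fold required. Among all genes, 1013 of 11599 genes tested (8.73%) were called higher with Nrf2 and 1031 of 11599 (8.89%) lower. With Nrf1, *Aox1* rose while *Ephx1* and *Akr1b8* fell. The calls over all genes were 1259 of 11599 (10.9%) higher and 1868 of 11599 (16.1%) lower in that comparison. Between the factors, 5 of the 9 were higher with Nrf2 than with Nrf1 (*Akr1b8*, *Nqo1*, *Akr1b1*, *Ephx1* and *Aox1*), or 6 of 10 with *Cbr1*, and limma called 0 lower, also by adjusted or unadjusted p alone. Over all genes, 1220 of 11599 (10.5%) were called higher with Nrf2 than with Nrf1 and 454 of 11599 (3.91%) lower. Under the restriction that sets *Cbr1* aside, the calls over all genes were 1185 higher and 1675 lower of 11118 for Nrf1 over LacZ, 840 higher and 942 lower of 11118 for Nrf2 over LacZ and 995 higher and 421 lower of 11118 for Nrf2 over Nrf1.

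Across the 10 enzymes the median log2 fold change was 0.21 for Nrf1 over LacZ, 0.96 for Nrf2 over LacZ and 0.94 for Nrf2 over Nrf1. The medians over all genes tested were 0.0053, -0.00063 and 0.0018. Both comparisons with LacZ use the same LacZ libraries and are not independent. The libraries of the groups did not overlap for 7, 8 and 9 of the 10 genes in these comparisons, against 69.6%, 61.2% and 62.9% of all genes tested. Without *Cbr1* the medians of the enzymes were 0.13, 0.45 and 0.98 in the same order, so the median for Nrf2 over LacZ rests on *Cbr1*. With the scaling set to total reads in place of median-of-ratios, the calls over all genes for Nrf2 over LacZ split into 815 higher and 1318 lower (38.2% higher, against 49.6%).

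The ratio of the authors' means, which needs no test and no values per library, was past 1.5-fold for the same numbers of enzyme genes. With a mean over both groups of at least 10, it counted 1 higher and 2 lower of 9 for Nrf1 over LacZ, where 1295 of 11220 (11.5%) of all genes were higher and 1941 of 11220 (17.3%) lower. It counted 5 higher and 0 lower of 10 for Nrf2 over LacZ. Of all genes, 1042 of 11404 (9.14%) were higher and 1184 of 11404 (10.4%) lower there. *Cbr1*, with authors' means of 5.87 in LacZ and 25.4 in Nrf2, is among the 5. It reached the minimum mean through the Nrf2 group, so it had to be higher, and the rest are *Nqo1*, *Akr1b8*, *Akr1b1* and *Aox1*. For Nrf2 over Nrf1 the ratio counted 6 higher and 0 lower of 10, *Cbr1* again among the higher genes (means of 26.4 and 11.7). Of all genes, 1300 of 11326 (11.5%) were higher and 564 of 11326 (4.98%) lower there.

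**Figure D2:**
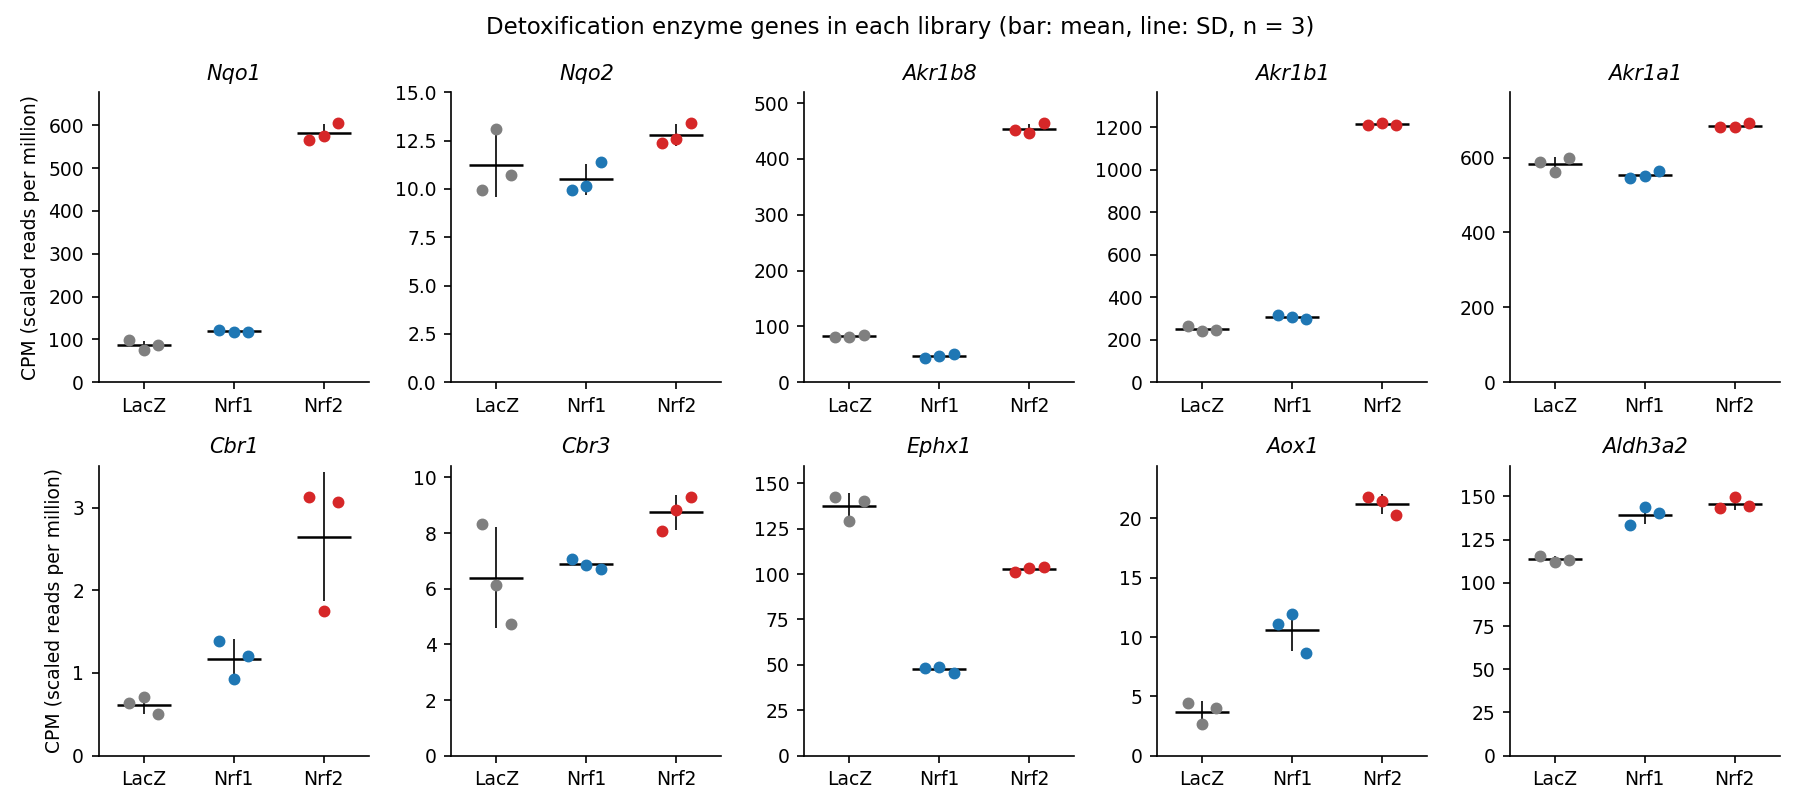
CPM of the 10 enzyme genes in each library, with points for libraries, bars for group means and lines for SD (n = 3), each gene on its own axis from 0. *Nqo1*, *Akr1b8*, *Akr1b1* and *Aox1* stand highest in the 3 Nrf2 libraries, and *Ephx1* stands highest in LacZ.

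**Figure D3:**
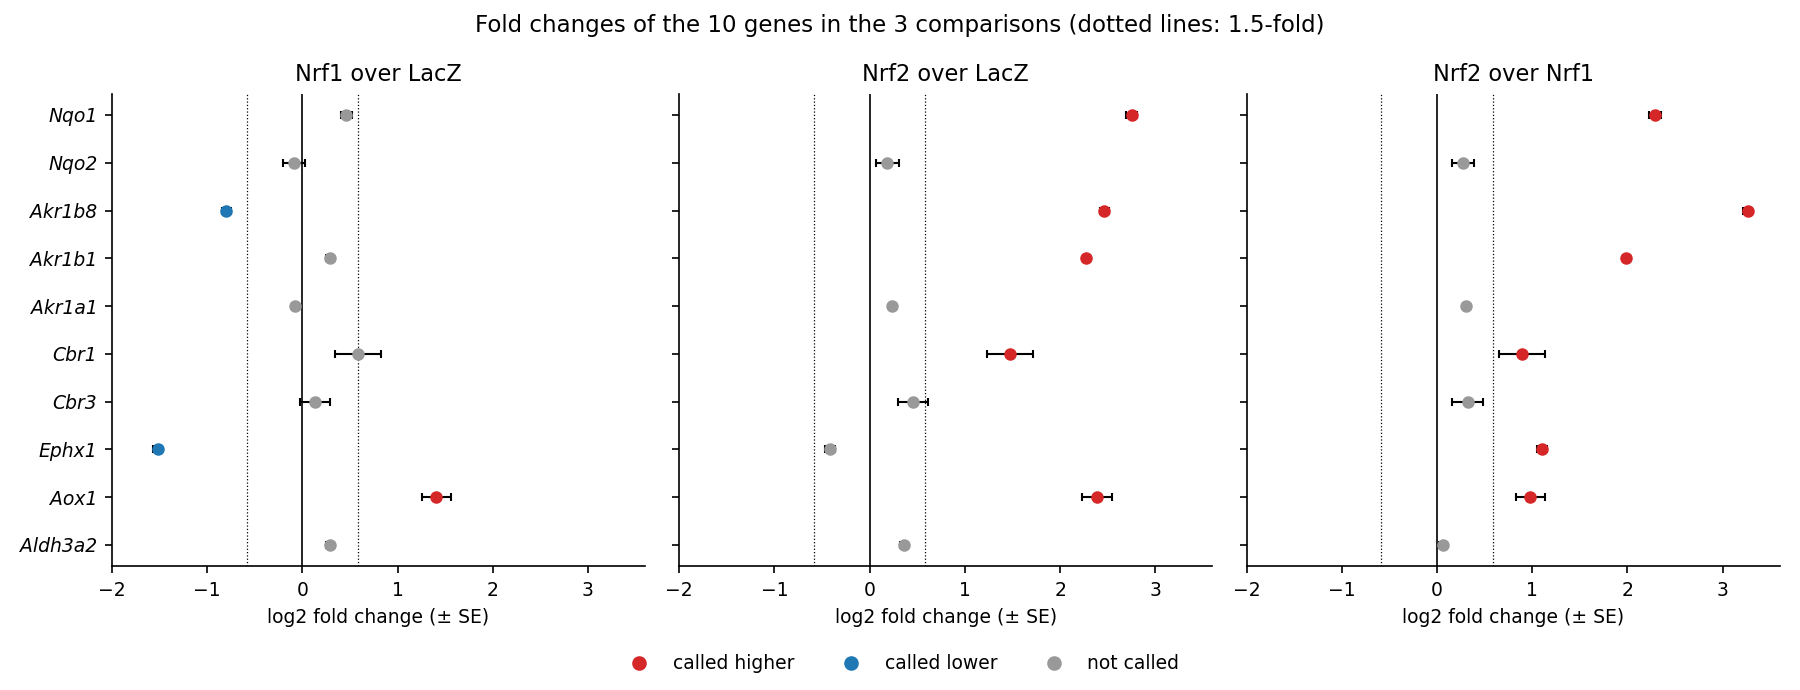
Log2 fold changes of the 10 enzyme genes with SE in the 3 comparisons, colored by call, with dotted lines at 1.5-fold. *Akr1b8* and *Ephx1* are the genes called lower for Nrf1 over LacZ, and *Ephx1* alone lies to the left of 0 for Nrf2 over LacZ.

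NQO1 reduces quinones straight to hydroquinones with NADH or NADPH and so bypasses the semiquinone radical. *Nqo1* stood at 97.6, 76.2 and 85.7 CPM in LacZ, 121, 118 and 117 CPM in Nrf1 and 565, 576 and 605 CPM in Nrf2 libraries. All Nrf2 libraries lay far above the rest, and the Nrf1 libraries lay above every LacZ library by a small margin. The group means were 86.5 ± 10.7 in LacZ, 119 ± 2.15 in Nrf1 and 582 ± 20.9 in Nrf2 (SD, n = 3), from 646 to 924 reads in LacZ and 5913 to 6489 reads in Nrf2 libraries. *Nqo1* rose 6.73-fold with Nrf2 over LacZ, a log2 fold change of 2.75 ± 0.061 (adjusted p = 4.01e-17), and ranked 50 from the highest among 11599 genes. For Nrf1 over LacZ the log2 fold change was 0.46 ± 0.061 (adjusted p = 2.05e-06), a 1.38-fold difference that did not reach the fold required for a call. Nrf2 stood 4.88-fold above Nrf1 (log2 fold change 2.29 ± 0.061, adjusted p = 1.25e-15). The order of the levels was thus Nrf2, Nrf1, LacZ, with no overlap between neighbors. The ratio of the authors' means was 6.74 for Nrf2 over LacZ and 1.37 for Nrf1 over LacZ.

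NQO2 is the related flavoprotein that takes its electrons from dihydronicotinamide riboside rather than from NADH or NADPH. *Nqo2* stood at 9.92, 13.1 and 10.7 CPM in LacZ, 9.94, 10.1 and 11.4 CPM in Nrf1 and 12.4, 12.6 and 13.4 CPM in Nrf2 libraries. The LacZ libraries spanned most of this range and overlapped both other groups, while the Nrf2 libraries lay just above the Nrf1 libraries. Its log2 fold change was -0.09 ± 0.12 for Nrf1 over LacZ (adjusted p = 0.524, 95% interval -0.33 to 0.16). For Nrf2 over LacZ it was 0.19 ± 0.12 (adjusted p = 0.184, 95% interval -0.06 to 0.43), so a change over 1.5-fold lay outside both intervals. Nrf2 over Nrf1 gave 0.27 ± 0.12 (adjusted p = 0.0550). The pair of quinone reductases therefore differed, with *Nqo1* called in both comparisons with the Nrf2 libraries and *Nqo2* in none.

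Aldo-keto reductases use NADPH to reduce aldehydes and ketones to alcohols. AKR1B8 is a rodent member that reduces aliphatic and aromatic aldehydes and retinal. *Akr1b8* stood at 80.4, 81.1 and 84.2 CPM in LacZ, 43.4, 47.6 and 50.0 CPM in Nrf1 and 453, 447 and 464 CPM in Nrf2 libraries. The groups did not overlap, with the Nrf2 libraries far above the LacZ libraries and the Nrf1 libraries below them. The group means were 81.9 ± 1.98 in LacZ, 47.0 ± 3.35 in Nrf1 and 455 ± 8.95 in Nrf2 (SD, n = 3). *Akr1b8* rose 5.52-fold with Nrf2 over LacZ (log2 fold change 2.47 ± 0.048, adjusted p = 6.39e-18). With Nrf1 it fell, to a level 1.74-fold below LacZ (log2 fold change -0.80 ± 0.048, adjusted p = 4.34e-11). *Akr1b8* was thus the enzyme gene with opposite calls for the factors, and it stood 9.60-fold higher with Nrf2 than with Nrf1 (log2 fold change 3.26 ± 0.048, adjusted p = 2.12e-19), rank 25 of 11599 from the highest. The ratio of the authors' means was 0.573 for Nrf1 over LacZ and 5.55 for Nrf2 over LacZ.

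The close paralogs *Akr1b10* and *Akr1b7* could share reads with *Akr1b8*, so its level is uncertain to that extent. *Akr1b7* had at most 3 reads in any library. *Akr1b10* had 5, 6 and 8 reads in LacZ, 4, 6 and 4 in Nrf1 and 20, 21 and 20 in Nrf2 libraries. Only its Nrf2 libraries were over 1 CPM, so it passed the filter through the group where it was high and had to be higher there. The log2 fold change of 0.97 ± 0.24 for Nrf2 over LacZ is given as a value only.

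AKR1B1 is aldose reductase, which turns glucose into sorbitol and also reduces aldehydes from oxidized lipids. *Akr1b1* stood at 264, 239 and 248 CPM in LacZ, 314, 307 and 296 CPM in Nrf1 and 1209.6, 1219 and 1208 CPM in Nrf2 libraries. Every Nrf2 library lay far above the others, and the Nrf1 libraries lay above all LacZ libraries. Its means were 250.2 ± 12.7 in LacZ, 306 ± 9.21 in Nrf1 and 1212 ± 5.77 in Nrf2 (SD, n = 3). *Akr1b1* rose 4.84-fold with Nrf2 over LacZ (log2 fold change 2.28 ± 0.036, adjusted p = 5.01e-19) and stood 3.96-fold above Nrf1 (1.99 ± 0.036, adjusted p = 5.35e-18). The Nrf1 libraries differed from LacZ by 1.22-fold (0.29 ± 0.036, adjusted p = 1.21e-06), which was under the fold required. In the authors' means the ratio was 4.85 for Nrf2 over LacZ and 1.22 for Nrf1 over LacZ.

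AKR1A1 is the aldehyde reductase that also makes the precursor of ascorbate in rodents. *Akr1a1* stood at 589, 561 and 599 CPM in LacZ, 546, 551 and 564 CPM in Nrf1 and 681, 682 and 692 CPM in Nrf2 libraries. The Nrf2 libraries lay above all others, and the LacZ and Nrf1 libraries overlapped. No comparison reached the fold required, with log2 fold changes of 0.23 ± 0.031 for Nrf2 over LacZ (adjusted p = 4.01e-06) and -0.07 ± 0.031 for Nrf1 over LacZ (adjusted p = 0.0429). Nrf2 stood 1.24-fold above Nrf1 (0.31 ± 0.031, adjusted p = 1.47e-07). Among the 3 aldo-keto reductases the difference was thus small for *Akr1a1* and several-fold with Nrf2 for *Akr1b8* and *Akr1b1*.

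Carbonyl reductases are NADPH-dependent enzymes that reduce ketones, quinones and the anthracycline drugs. *Cbr1* had few reads, with 6, 6 and 4 reads in LacZ, 14, 9 and 10 reads in Nrf1 and 36, 19 and 30 reads in Nrf2 libraries. These were 0.633, 0.707 and 0.498 CPM in LacZ, 1.39, 0.922 and 1.201 CPM in Nrf1 and 3.13, 1.75 and 3.07 CPM in Nrf2 libraries. The groups did not overlap, LacZ being lowest and Nrf2 highest, but 1 Nrf2 library lay close to the Nrf1 libraries. Because the filter let *Cbr1* in through the Nrf2 and Nrf1 libraries, its log2 fold changes of 1.47 ± 0.24 for Nrf2 over LacZ and 0.89 ± 0.24 for Nrf2 over Nrf1 are given as values only. With no filter on low counts they were 1.47 ± 0.22 (adjusted p = 6.24e-05) and 0.89 ± 0.22 (adjusted p = 0.00387), and at a pseudocount of 2 CPM the last was 0.54 and under the fold required. For Nrf1 over LacZ the value was 0.58 ± 0.24, just under the fold required, and it passed without library b of LacZ (0.64) or of Nrf1 (0.70), which makes 2 of the 10 enzyme genes higher with Nrf1. The pseudocount shrinks fold changes at this level, and the log2 ratio of the authors' means was 2.11 for Nrf2 over LacZ and 0.93 for Nrf1 over LacZ.

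CBR3 is a close paralog of CBR1 with lower activity toward many of the same substrates, and reads of the pair could be split in counting. *Cbr3* stood at 8.34, 6.13 and 4.73 CPM in LacZ, 7.06, 6.86 and 6.72 CPM in Nrf1 and 8.09, 8.82 and 9.31 CPM in Nrf2 libraries. The LacZ libraries varied most and overlapped both other groups, while all Nrf2 libraries lay above all Nrf1 libraries. The log2 fold change was 0.45 ± 0.16 for Nrf2 over LacZ (adjusted p = 0.0220), under the fold required. Without library a of LacZ, the highest of that group, it was 0.64 (adjusted p = 0.00131) and was called, and 6 enzyme genes were then called higher with Nrf2. Without library c of LacZ, the lowest, it was 0.27. For Nrf1 over LacZ it was 0.13 ± 0.16 (adjusted p = 0.486, 95% interval -0.20 to 0.47), and for Nrf2 over Nrf1 0.32 ± 0.16 (adjusted p = 0.0962). With 38 to 79 reads in the LacZ libraries, the direction for Nrf1 was not resolved, and with single libraries left out it ranged from -0.05 to 0.33.

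EPHX1 is microsomal epoxide hydrolase, which opens reactive epoxides to diols. *Ephx1* stood at 143, 129 and 140.1 CPM in LacZ, 48.4, 48.9 and 45.5 CPM in Nrf1 and 101, 103 and 104 CPM in Nrf2 libraries. The groups did not overlap, and the order was LacZ, Nrf2, Nrf1 from high to low. The group means were 137 ± 6.98 in LacZ, 47.6 ± 1.82 in Nrf1 and 103 ± 1.70 in Nrf2 (SD, n = 3). *Ephx1* fell with Nrf1 to a level 2.87-fold below LacZ (log2 fold change -1.52 ± 0.048, adjusted p = 4.77e-15), rank 286 of 11599 from the lowest. With Nrf2 the log2 fold change was -0.42 ± 0.048 (adjusted p = 7.13e-07), 1.33-fold lower, which was under the fold required. Nrf2 stood 2.15-fold above Nrf1 (1.103 ± 0.048, adjusted p = 1.33e-12). The ratio of the authors' means was 0.346 for Nrf1 over LacZ and 0.749 for Nrf2 over LacZ. The fibroblast marker sums stood in the same order of groups, and 10 of 10 fibroblast markers were called lower with Nrf1 and 8 of 10 with Nrf2, with medians of -1.68 and -1.07. Their part in the levels of *Ephx1* was not tested.

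AOX1 is an aldehyde oxidase that needs a molybdenum cofactor and passes electrons to oxygen as it turns aldehydes into acids. *Aox1* stood at 4.43, 2.71 and 3.98 CPM in LacZ, 11.1, 12.0 and 8.65 CPM in Nrf1 and 21.8, 21.5 and 20.3 CPM in Nrf2 libraries. The groups did not overlap, LacZ being lowest, Nrf1 between and Nrf2 highest. It had 23 to 42 reads in LacZ, 72 to 117 in Nrf1 and 198 to 251 in Nrf2 libraries, so counting error is larger here than for *Nqo1*. *Aox1* rose 2.65-fold with Nrf1 over LacZ (log2 fold change 1.41 ± 0.15, adjusted p = 1.91e-07), rank 132 of 11599 from the highest. With Nrf2 it rose 5.24-fold (2.39 ± 0.15, adjusted p = 2.29e-10), and Nrf2 stood 1.97-fold above Nrf1 (0.98 ± 0.15, adjusted p = 2.83e-05). *Aox1* was the enzyme gene called higher with both factors. The ratio of the authors' means was 2.85 for Nrf1 and 5.72 for Nrf2 over LacZ.

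The paralogs *Aox2*, *Aox3* and *Aox4* could share reads with *Aox1*, and *Aox3* and *Aox4* had at most 8 and 5 reads in any library. *Aox2* had 13, 12 and 6 reads in LacZ, 12, 8 and 6 in Nrf1 and 42, 32 and 29 in Nrf2 libraries, with only the Nrf2 libraries set apart. It rose with Nrf2 over LacZ (log2 fold change 1.16 ± 0.23, adjusted p = 0.000311), while its value for Nrf1 was -0.24 ± 0.23 (adjusted p = 0.375). Among other molybdenum enzymes and genes of cofactor synthesis, 8 of 14 listed were tested. *Xdh*, which encodes xanthine oxidoreductase, fell with Nrf1 (-1.19 ± 0.090, adjusted p = 1.31e-09) and rose with Nrf2 (0.67 ± 0.090, adjusted p = 3.98e-06). In that list 0 genes were called higher by limma with Nrf1, with 2 higher by adjusted or unadjusted p alone, and *Aox2* and *Xdh* were the 2 called higher with Nrf2, where 0 were called lower (0 at an unadjusted p). With no filter on low counts *Aox3* was called lower there (-0.81) and *Aox4* higher (0.73, and 0.64 for Nrf2 over Nrf1), on the few reads given above.

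ALDH3A2 is the fatty aldehyde dehydrogenase, which oxidizes long-chain aldehydes from membrane lipids. *Aldh3a2* stood at 115.5, 112 and 113 CPM in LacZ, 133, 144 and 141 CPM in Nrf1 and 143, 149.9 and 144 CPM in Nrf2 libraries. All LacZ libraries lay below every library of the other groups, and the Nrf1 and Nrf2 libraries overlapped. The difference was small next to the fold required, with log2 fold changes of 0.29 ± 0.040 for Nrf1 (adjusted p = 4.11e-06) and 0.36 ± 0.040 for Nrf2 over LacZ (adjusted p = 5.09e-07). Nrf2 over Nrf1 gave 0.07 ± 0.040 (adjusted p = 0.175, 95% interval -0.02 to 0.15), so a change over 1.5-fold lay outside that interval. The ratio of the authors' means was 1.22 for Nrf1 and 1.28 for Nrf2 over LacZ.

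Related enzymes were described from wider lists that leave out the 10 genes. Of 18 genes tested in the list of quinone and NAD(P)H reductases, 5 rose and 1 fell with Nrf1 (median log2 fold change 0.22). With Nrf2 over LacZ 3 rose and limma called 0 lower, with 2 lower at an adjusted p alone and 4 at an unadjusted p (median 0.15). *Blvrb*, which encodes biliverdin reductase B, rose under Nrf1 (2.44 ± 0.053, adjusted p = 2.31e-17) and under Nrf2 (1.89 ± 0.053, adjusted p = 1.1e-15). *Blvra*, which encodes biliverdin reductase A, was called with neither factor over LacZ (0.04 ± 0.13 and 0.35 ± 0.13). *Cyb5r3*, which reduces cytochrome b5, rose with Nrf1 (1.49 ± 0.051) and Nrf2 (1.01 ± 0.051), and so did *Aifm2*, a ubiquinone reductase (1.24 ± 0.092 and 0.67 ± 0.092). *Qdpr* and *Cryzl1* were the others that rose with Nrf1 (1.02 ± 0.061 and 0.70 ± 0.13), and *Vkorc1*, the vitamin K epoxide reductase, fell (-0.87 ± 0.085). Between the factors only *Cyb5a*, which encodes cytochrome b5 itself and not a reductase, was called higher with Nrf2 (0.95 ± 0.075). There limma called 0 lower, with 7 lower at an adjusted p alone and 8 at an unadjusted p. That 0 became 1 with limma voom, total-read scaling, or without library a or b of Nrf1 or a of Nrf2, 2 without library c of Nrf1 and 3 without library b of Nrf2. *Cryzl1* (-0.58 ± 0.13), *Aifm2* (-0.56 ± 0.092) and *Blvrb* (-0.55 ± 0.053) lay just under the fold there and were the genes that crossed it. The call of *Aifm2* with Nrf2 was lost without library c of LacZ (0.58).

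Of 25 aldo-keto and carbonyl reductases tested of 32 listed, 4 rose and 5 fell with Nrf1 (median -0.24), and 7 rose and 3 fell with Nrf2 over LacZ (median 0.21). *Akr7a3*, an aflatoxin aldehyde reductase, rose with Nrf1 (1.70 ± 0.21) and with Nrf2 (4.30 ± 0.21, adjusted p = 4.71e-12). It had only 16, 9 and 4 reads in LacZ libraries a, b and c, so the size of these folds is uncertain. The log2 ratios of the authors' means were 2.03 and 4.75. *Akr1cl* also rose with both (1.65 ± 0.10 and 2.97 ± 0.10). *Ptgr1*, which reduces prostaglandins and unsaturated aldehydes, rose with Nrf2 (2.79 ± 0.052, adjusted p = 3.98e-18) but stood at 0.03 ± 0.052 with Nrf1. *Dhrs1* rose with Nrf1 (1.71 ± 0.055) and less with Nrf2 (0.64 ± 0.055, a call lost without library b of LacZ, 0.58, or with total-read scaling, 0.56), and the difference of -1.06 ± 0.055 for Nrf2 over Nrf1 was itself called (adjusted p = 1.23e-11). *Hsd11b1*, which activates glucocorticoids, fell with Nrf1 (-2.11 ± 0.15) and with Nrf2 (-1.02 ± 0.15). The *Akr1c* genes are close paralogs and their values are uncertain. Nrf2 over Nrf1 gave 10 higher and 2 lower in this list (median 0.31). The 5 lower with Nrf1 became 1 at a pseudocount of 2 CPM and 8 with total-read scaling. The 2 lower for Nrf2 over Nrf1 became 1 at that pseudocount, in a fit of the 6 libraries of the pair, or without library a or b of Nrf1 or a or c of Nrf2. *Akr1b10*, *Akr1c14* and *Dhrs7c* passed the filter with no library over 1 CPM in a group. Without them the counts over 22 genes were 4 higher and 4 lower for Nrf1 over LacZ (median -0.01), 6 and 2 for Nrf2 over LacZ (median 0.22), and 8 and 1 for Nrf2 over Nrf1 (median 0.28).

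Of 16 aldehyde dehydrogenases tested of 19 listed, limma called 0 higher with Nrf1, with 5 by adjusted or unadjusted p alone, and 2 lower (median 0.04), while 3 were called higher and 2 lower with Nrf2 over LacZ (median 0.17). The 0 with Nrf1 became 2 without library a of LacZ or b of Nrf1 and 1 with limma voom, and the 3 with Nrf2 became 1 without library b of Nrf2. *Aldh1a7*, a cytosolic aldehyde dehydrogenase close in sequence to *Aldh1a1*, was over 1 CPM only in the Nrf2 libraries and so had to be higher there (1.93 ± 0.27). Without it, 2 of 15 rose with Nrf2 over LacZ (median 0.15). These were *Aldh3b1* (0.75 ± 0.15), whose call was lost at a pseudocount of 2 CPM (0.585), and the mitochondrial *Aldh2* (0.59 ± 0.035), whose call was lost without library b of LacZ (0.57) or of Nrf2 (0.56) or with total-read scaling (0.50). *Aldh1l2*, of mitochondrial folate metabolism, fell with Nrf1 (-1.83 ± 0.096) and Nrf2 (-0.98 ± 0.096), as did *Aldh1a2*, which makes retinoic acid (-0.88 ± 0.15 and -1.31 ± 0.15). The list of other epoxide hydrolases had 3 genes tested, *Lta4h*, *Ephx2* and *Mest*, the last of uncertain place there. *Lta4h*, of leukotriene synthesis, rose with Nrf1 (0.96 ± 0.039). With Nrf2 over LacZ limma called 0 in either direction (2 higher, *Lta4h* and *Mest*, and 0 lower by adjusted or unadjusted p alone). *Ephx2*, the soluble epoxide hydrolase, was higher with Nrf2 than with Nrf1 (0.79 ± 0.14), while *Lta4h* was lower (-0.80 ± 0.039, adjusted p = 6.29e-12). *Ephx2* stood at -0.57 ± 0.14 for Nrf1 over LacZ, just under the fold required, and was called lower there without library c of LacZ or b of Nrf1, with limma voom or with total-read scaling.

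**Figure D4:**
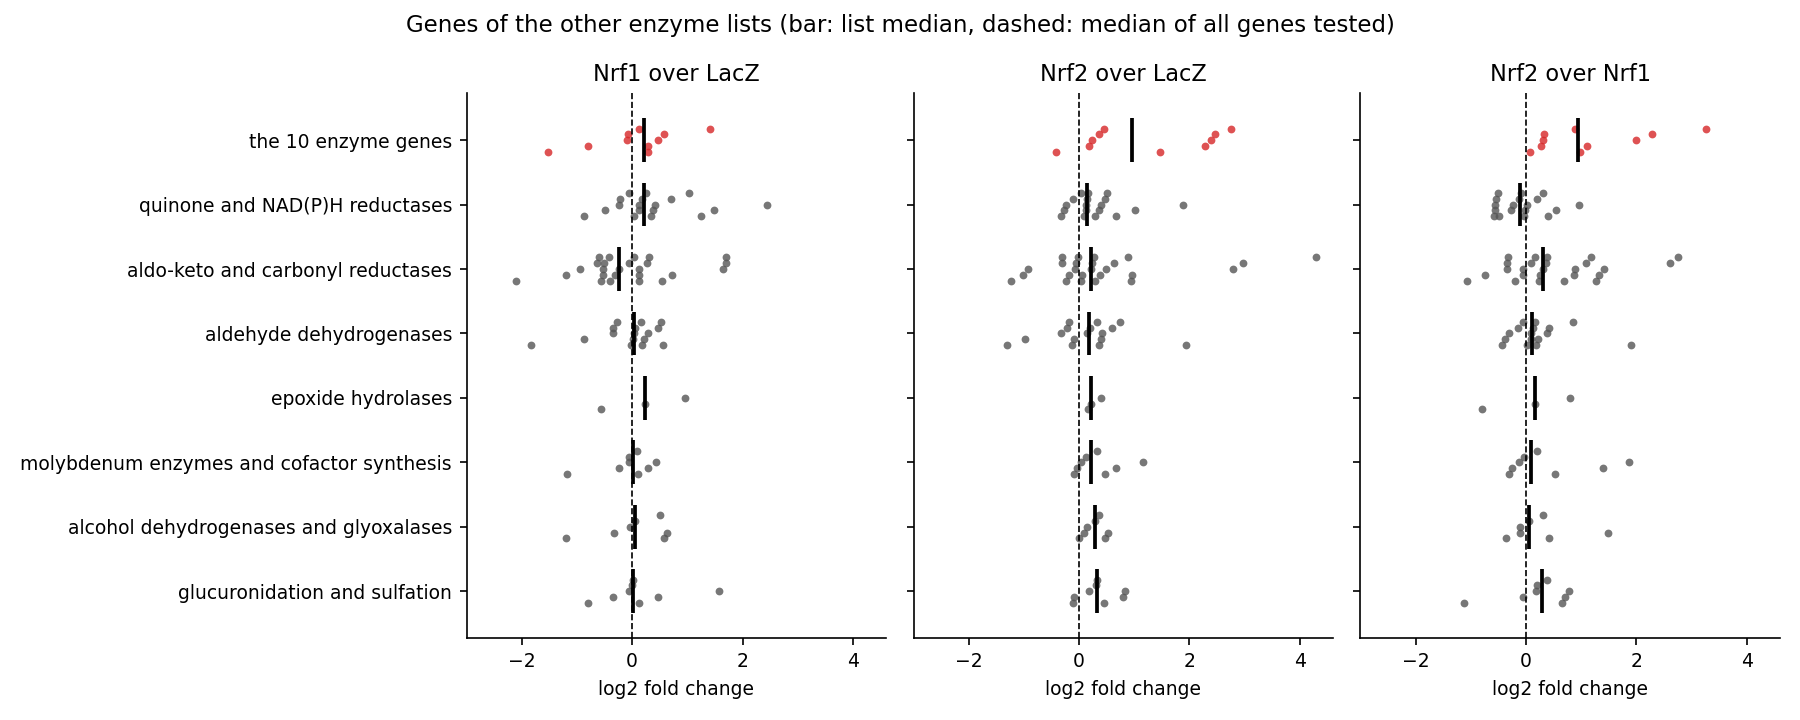
Log2 fold changes of the 10 enzyme genes and of 7 wider lists in the 3 comparisons, with a point for each gene tested, a bar for the list median and a dashed line for the median of all genes tested. The medians of the 10 genes are 0.96 and 0.94 in the comparisons of Nrf2 with LacZ and with Nrf1, and 0.45 and 0.98 without *Cbr1*.

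The genes most like *Nqo1* were sought by the distance between pairs of log2 ratios of the authors' means (Nrf1 over LacZ and Nrf2 over LacZ), over the 8318 genes whose mean reached 100, the 10 enzyme genes aside. The values come from 3 group means and share the LacZ libraries, so they describe likeness only. For *Nqo1* the ratios were 0.46 and 2.75. The nearest gene was *Nefm*, a neurofilament subunit, at a distance of 0.047 (0.43 and 2.71). It stood at 9.08, 8.84 and 8.59 CPM in LacZ, 13.4, 13.1 and 9.25 CPM in Nrf1 and 52.8, 64.4 and 56.4 CPM in Nrf2 libraries. Its Nrf2 libraries were far above the rest. All Nrf1 libraries lay above LacZ, library c (9.25 CPM) only just. Next came *Scg2*, a secretory granule protein (0.53 and 2.55, distance 0.220), and *Pla2g7*, which cleaves oxidized phospholipids (0.71 and 2.82, distance 0.268). *Ptgr1* (0.02 and 2.79, distance 0.434) and *Map7*, a microtubule-binding protein (0.56 and 2.32, distance 0.444), followed.

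The other marker lists moved with the groups as well. The 10 leukocyte markers summed to 206, 297 and 214 CPM in LacZ libraries. Their sums were 118, 121 and 120.2 CPM in Nrf1 and 109, 122 and 119.5 CPM in Nrf2 libraries. By group mean, *Lyz2* was the most abundant of them in LacZ (81.8 CPM), and *Csf1r* in Nrf1 (40.0 CPM) and Nrf2 (31.3 CPM). All LacZ sums lay above all others, and 9 of 10 markers were called lower with each factor. The other, *Csf1r*, stood at 0.45 ± 0.12 with Nrf1 (adjusted p = 0.00301), under the fold required, and 1 leukocyte marker was called higher with Nrf1 without library b of LacZ. The 8 endothelial markers summed to 151, 155 and 155 CPM in LacZ libraries. Their sums were 119.6, 109 and 120.4 CPM in Nrf1 and 122, 106 and 131 CPM in Nrf2 libraries, again highest in LacZ. By group mean, *Kdr* was the most abundant of them in LacZ (39.5 CPM) and Nrf1 (43.7 CPM), and *Tek* in Nrf2 (32.9 CPM). Of these markers, 5 were called lower with Nrf1, and 1 higher and 4 lower with Nrf2. The 4 smooth muscle markers, with *Acta2* most abundant, summed to 4051, 3350.5 and 3727 CPM in LacZ, 6255, 6205 and 6169 CPM in Nrf1 and 4886, 4986 and 5228 CPM in Nrf2 libraries, highest in Nrf1. *Acta2* and *Tagln* carry that sum and were called higher with Nrf1 (0.84 ± 0.051 and 0.84 ± 0.051), while *Myh11* was called lower (adjusted p = 1.55e-11) and *Cnn1* was called higher with Nrf2 only (0.82 ± 0.042). The paper uses *Acta2* as a marker of a cardiomyocyte population of neonatal mouse hearts, so this sum cannot be read as smooth muscle cells alone. For Nrf2 over Nrf1, 1 leukocyte, 1 endothelial and 2 smooth muscle markers were called higher, the leukocyte count becoming 2 without library a of Nrf1 or a or c of Nrf2, and the endothelial count 0 without library b of Nrf1 and 3 without library b of Nrf2. No marker analysed was at 0 in any library. Their part in the levels of the 10 enzyme genes was not tested.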

How the data were processed

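The study sequenced stranded mRNA of NRVMs in 9 libraries, 3 for each of LacZ, Nrf1 and Nrf2. According to the paper's methods and the submitters' processing notes, the authors checked reads with FastQC 0.11.4, aligned them to Rnor 6.0 with HISAT2 2.0.4, removed duplicates with SAMtools 0.1.18, counted reads per gene with featureCounts 1.6.0 and compared groups with edgeR 3.20.5.

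The signal in the 3 deposited tables is, for each group, an average of read counts, scaled by the authors with size factors computed for the pair of groups compared. The other columns hold the authors' mean over both groups, fold change, its log2, p-value and adjusted p-value, and were not used. No columns of single samples were left unused (0).

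Each group's mean stands in 2 tables with different size factors, and whole reads per library were solved from both. Exactly 1 solution was found for 14649 of 14657 genes for LacZ, 14579 of 14579 for Nrf1 and 14746 of 14746 for Nrf2. The 8 genes with several solutions (*Nppa* among them) and 50 with dates or shared symbols were left out. Size factors recomputed from the reads differed from those in the means by at most 0.0126%. The libraries a, b and c carry no replicate number. No pair of libraries agreed within sampling noise, with chi-square per degree of freedom of 5.58, 2.69 and 2.97 in LacZ, 1.69, 1.64 and 1.53 in Nrf1 and 2.09, 3.99 and 5.04 in Nrf2 for the pairs a and b, a and c, and b and c. Library b of LacZ had the lowest *Nqo1*, *Aox1* and *Actc1* and the highest leukocyte sum of its group.

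Levels are CPM after median-of-ratios scaling. limma 3.58.1 (R 4.3.3, trend) was fitted to log2(CPM + 0.5) over all 9 libraries for genes over 1 CPM in at least 3, with Benjamini-Hochberg adjustment over 11599 genes, and calls needed adjusted p under 0.05 and a fold over 1.5. All adjusted p-values are limma's. A fold on this scale understates the change of low genes. Ratios of the authors' means used genes with a mean of at least 10, with no test. Python 3.11.15, numpy 2.4.6, pandas 2.3.3 and matplotlib 3.10.9 served for the other steps. The recovery of reads and the fit were tested on simulated data. The count models were listed as an alternative for files that hold counts. The deposited files hold means, so these models were left out, and the reads solved from the means entered limma only.

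The members and lists were chosen with earlier results of these data known. Named genes were the 10 enzymes, *Nfe2l2*, up to 3 called genes per list, direction and comparison, the 5 nearest to *Nqo1* and the most abundant markers. *Akr1b10* and *Akr1b7*, *Aox3* and *Aox4*, *Aldh1a1*, *Csf1r*, *Park7*, *Blvra*, *Mest*, *Qdpr* and *Cryzl1* were named after their values were seen. Alternatives were total-read scaling, no filter, a pseudocount of 2 CPM, limma voom, the libraries of the pair alone, each library left out in turn and, for the ratios, a fold of 2, a mean of at least 100 or no minimum, re-centring on the median gene and 1 added to each mean. Counts without genes over 1 CPM in no library of a group, and without *Hint1*, were added after the values were seen.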

Additional observations from a re-analysis of the deposited data

How the results depend on the processing

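No paired analysis was possible because the recovered libraries carry no replicate number, so the replicate block was not run, and the count models, listed for files that hold counts, were left out. No call changed direction. Values that were not called turned sign in some settings. With each library left out in turn the log2 fold changes ranged as follows, *Aldh1a7* Nrf1 over LacZ -0.12 to 0.26, *Cbr3* Nrf1 over LacZ -0.053 to 0.33, *Cd14* Nrf2 over Nrf1 -0.043 to 0.071, *Cdh5* Nrf2 over Nrf1 -0.040 to 0.14, *Col1a2* Nrf2 over LacZ -0.85 to 0.12, *Emcn* Nrf2 over Nrf1 -0.54 to 0.025, *Nqo2* Nrf1 over LacZ -0.17 to 0.021, *Ptgr1* Nrf1 over LacZ -0.049 to 0.070, *Ugt1a6* Nrf1 over LacZ -0.040 to 0.090. With limma voom they were *Aldh1a7* Nrf1 over LacZ -0.032. With total-read scaling they were *Aldh1a7* Nrf1 over LacZ -0.010, *Ptgr1* Nrf1 over LacZ -0.041, *Ugt1a6* Nrf1 over LacZ -0.047. Of values for single enzyme genes 323 kept direction and call, 2 turned sign, 3 were called in addition and 1 call was lost, these calls being *Cbr1* or *Cbr3* as given in the report. Of other named genes, 1995 values kept direction and side of the threshold, 20 turned sign, 23 crossed it upward and 25 downward, and of counts in gene lists 752 stayed within 1.5 times and 40 did not. Leaving out each library in turn gave, for Nrf1 over LacZ, 1229 to 1312 genes higher, 1782 to 1846 lower and 1 to 2 enzyme genes higher and 2 to 2 lower. For Nrf2 over LacZ it gave 882 to 1030 higher, 932 to 1048 lower and 5 to 6 enzyme genes higher, and for Nrf2 over Nrf1 1094 to 1215 higher, 461 to 477 lower and 6 to 6 enzyme genes higher.

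The counts from ratios of the authors' means moved with the fold and the minimum mean, which change how many genes can be counted. At a fold of 2 they were 444 higher and 1024 lower for Nrf1 over LacZ, with 1 enzyme gene lower, 466 and 441 for Nrf2 over LacZ, and 584 and 128 for Nrf2 over Nrf1. At a mean of at least 100 they were 894 lower for Nrf1 over LacZ, with 0 of 6 enzyme genes higher, 605 higher and 516 lower for Nrf2 over LacZ, and 560 and 341 for Nrf2 over Nrf1. With no minimum they were 3047 lower for Nrf1 over LacZ, with 2 of 10 enzyme genes higher, 1822 higher and 1984 lower for Nrf2 over LacZ, and 2358 and 1035 for Nrf2 over Nrf1.

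Of the enzyme genes, the depth limits *Cbr1*, *Cbr3* and *Aox1* most, with 4 to 6, 38 to 79 and 23 to 42 reads in the LacZ libraries. Counts of genes by limma stayed within 1.5 times under each alternative run.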

Other observations

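Enzymes of neighboring routes were described from further lists. Of 8 genes of glucuronidation and sulfation tested of 19 listed, 1 rose and 1 fell with Nrf1 over LacZ (median log2 fold change 0.01), and with Nrf2 2 rose and limma called 0 lower, also by adjusted or unadjusted p alone (median 0.32). *Ugt1a2*, a glucuronosyltransferase, rose with Nrf1 (1.57 ± 0.12, adjusted p = 9.56e-10), and *Ugdh*, which makes UDP-glucuronate, fell (-0.81 ± 0.075, adjusted p = 2.31e-08). *Papss2*, which makes the sulfate donor, rose with Nrf2 (0.84 ± 0.072, adjusted p = 1.34e-08), as did *Ugt1a6* (0.80 ± 0.15, adjusted p = 0.000209). The *Ugt1a* genes share exons, so their reads may be split and their values are uncertain. Between the factors, *Ugt1a6*, *Ugdh* and *Ugp2* were higher with Nrf2 and *Ugt1a2* was lower (-1.12 ± 0.12).

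Among alcohol dehydrogenases and glyoxalases, *Hint1*, a nucleotide-binding hydrolase, had been listed in error, and the counts here leave it out. Of the remaining 10 genes listed, 6 were tested. With Nrf1 over LacZ limma called 0 higher, with 2 by adjusted or unadjusted p alone, and *Adh7*, a retinol dehydrogenase, lower (-1.20 ± 0.22). With Nrf2 over LacZ it called 0 in either direction, with 2 higher and 0 lower by adjusted or unadjusted p alone (median 0.21). *Adh7* was over 1 CPM in no Nrf1 library, and it passed the filter through the other groups, so it had to be lower with Nrf1. *Park7*, a deglycase, stood at 0.57 ± 0.051 with Nrf1, just under the fold required, and was called higher without library a or c of LacZ or b of Nrf1. The figure of the lists keeps *Hint1*, which was called higher with Nrf1 (0.63 ± 0.045) but not with total-read scaling (0.56).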
